A study of Homo sapiens with 6 samples.

Results

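Follistatin and its relatives, the activin subunits and the activin receptors were examined in PA1, an established human cell line from an ovarian teratocarcinoma, with and without knockdown of the transcription factor SOX2. The set holds 9 of the 59653 gene symbols counted: the binding proteins FST, FSTL1 and FSTL3, the ligand subunits INHBA, INHBB and INHBE, and the receptors ACVR1B, ACVR2A and ACVR2B. Members were chosen by gene family with their values in SOX2 siRNA against control libraries already known. Their differences between groups are therefore given as a description. No p-value is printed for a member, and calls of members at a threshold are part of that description. Values of single libraries are listed in the order of replicates 1 to 3. The genotype label of all libraries is wildtype. A control group of 3 libraries came from PA1 cells transfected with a negative control small interfering RNA (siRNA), and a SOX2 siRNA group of 3 libraries from cells transfected with siRNA against SOX2. The study used a pair of SOX2 siRNAs, and whether they were pooled is not stated. In both groups cells grew attached for 24 h after transfection and then for 72 h on a coating that blocks attachment. The labels do not say that libraries came from separate cultures, so spreads and p-values measure the variation between these libraries, which may be technical.

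Activins are dimers of inhibin beta subunits that belong to the TGF-beta family. An activin dimer binds a type II receptor (ACVR2A or ACVR2B), which then recruits and phosphorylates a type I receptor such as ACVR1B (ALK4), and the complex phosphorylates SMAD2 and SMAD3. Follistatin, the product of FST, is a secreted protein that wraps around activin and blocks both receptor sites. In pluripotent stem cells, activin and the related ligand NODAL act through this route to maintain pluripotency or to drive mesendoderm formation, depending on dose and context.

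SOX2 itself was at 245, 265 and 256 CPM in control and at 51.8, 54.9 and 50.6 CPM in SOX2 siRNA libraries. CPM here are counts as a share of each library's total after TMM scaling. The log2 fold change of SOX2 was -2.28, SE 0.0437, with an adjusted p of 5.97e-16 in edgeR's quasi-likelihood test. The exact two-sided permutation p was 0.1, the smallest that 3 against 3 libraries allow. Libraries held 25152313 to 32753184 counts, and 3 counts, taken as the smallest amount told from none, equalled 0.0909 to 0.120 CPM. Summed CPM of 7 embryonal markers, SOX2 among them, ran from 2946 to 2995 in control and from 2693 to 2752 in SOX2 siRNA libraries, with all 7 above the floor of 3 counts in every library. Single markers varied more than this sum, which does not show that they were steady. Over all libraries PODXL ran from 654 to 1325 CPM, LIN28A from 704 to 1154, LIN28B from 228 to 368 and POU5F1 from 279 to 354. SALL4 ran from 142 to 154 CPM and DPPA4 from 1.71 to 3.08 CPM. Of 4 blood markers, HBB had no count and the sum stayed at or below 0.803 CPM. The sum of 3 fibroblast markers ran from 28.7 to 30.6 CPM in control and from 107 to 108 CPM after SOX2 siRNA, nearly all of it PDGFRB, while DCN did not exceed 0.124 CPM. The sum of 3 endothelial markers, mostly PECAM1, ran from 74.5 to 77.5 CPM in control and from 49.9 to 51.9 CPM after SOX2 siRNA. The 5 markers of granulosa and other gonadal cells summed to 4.71 to 5.88 CPM in control and 4.95 to 5.40 CPM after SOX2 siRNA. Most of this was AMH, at 4.21 to 4.79 CPM over all libraries, while FOXL2 did not exceed 0.0692 CPM. The part of these markers in the results below was not tested. In bulk RNA, a change in the number of cells that express a gene cannot be told apart from a change in RNA per cell.

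Of the 9 genes, 8 passed the filter on low counts and INHBB did not. FST was called lower and FSTL1 and ACVR1B were called higher at an edgeR adjusted p under 0.05 over all tested genes, so 3 members were called, 2 higher and 1 lower. Over all 17592 tested genes 28.2% were called, 14.8% higher and 13.4% lower. The CPM ranges of the groups did not overlap for 5 members (FST, FSTL1, INHBA, ACVR1B and ACVR2B), a separation that 41.8% of all tested genes showed. The median log2 fold change was 0.12 over the 8 members and -0.00085 over all tested genes.

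**Figure D1:**
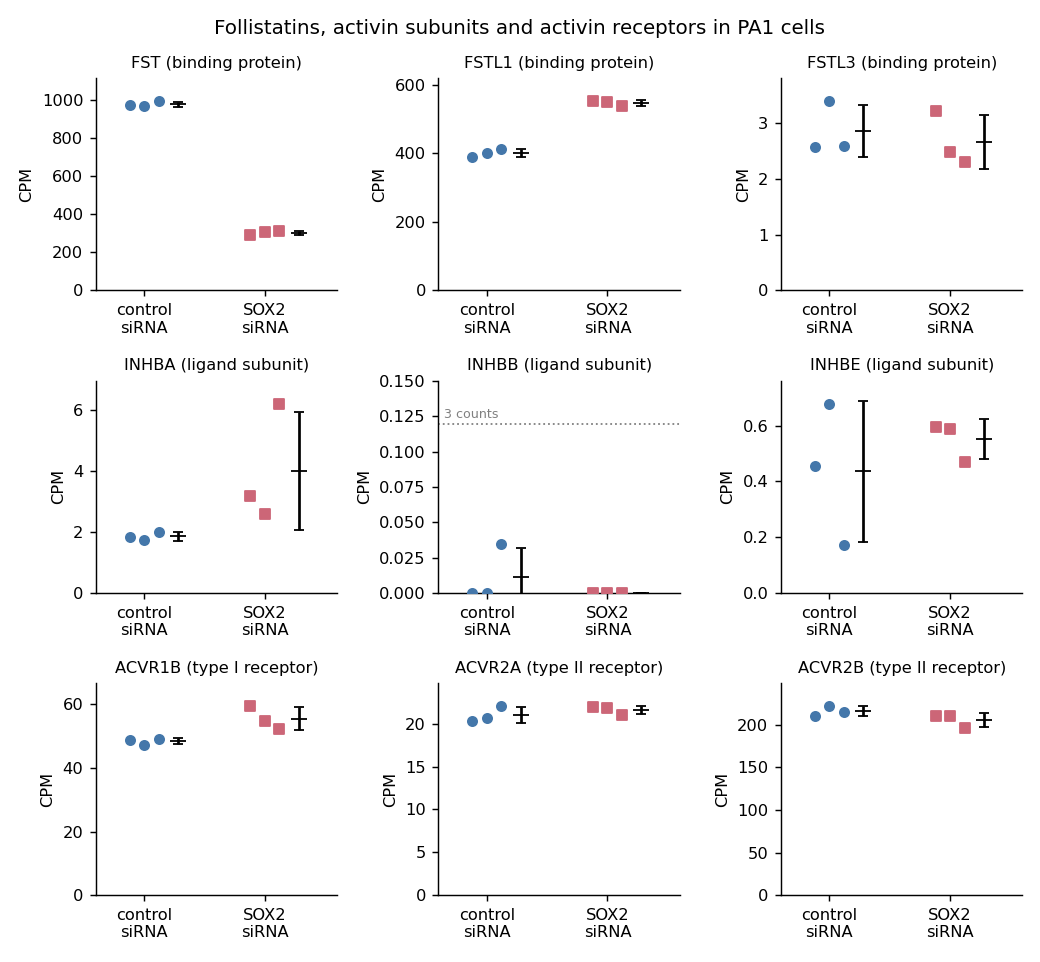
Expression of the 9 genes in each library, in CPM, with one panel per gene and its own vertical axis from 0. Circles are control and squares SOX2 siRNA libraries, the bar beside them is the mean with its SD over 3 libraries, and the dotted line for INHBB is the highest CPM that 3 counts equal. FST stands near 978 CPM in control and near 303 CPM after SOX2 siRNA, FSTL1 is higher in all 3 SOX2 siRNA libraries, and a single SOX2 siRNA library is far above the rest for INHBA.

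Promoter sequence from RefSeq (build GRCh38.p14) was found for 8 of the 9 genes, and INHBE was not among them. Each window of 300 bases spans 250 bases before to 50 bases after an annotated start, and ACVR1B has a pair of such windows. Stretches of 30 bases are shown for the members whose libraries separated by group, to show either the letters just before the start or those around a match, so the stretches lie at different distances from their starts. Sequences run 5′ to 3′ on the gene's own strand. Capitals mark ACAAAG or its reverse complement CTTTGT, letters that SOX and TCF/LEF proteins are known to bind; a stretch without capitals is the 30 bases just before the start. All starts here are RefSeq starts. The marked letters begin 75 bases before the INHBA start, 19 bases before the second ACVR1B start and 30 bases before the ACVR2B start. For each gene shown, the RefSeq start used lies inside the GENCODE gene span given below, which begins further upstream. The marked letters, and the stretches of FST and FSTL1, therefore lie within those spans and not before them.
FST, chr5:53480599-53480628, plus strand: tttaaagcgcggctgcgcccggcttctgac
FSTL1, chr3:120450993-120451022, minus strand: cttaaggggcggcgaggggaggtcgcattt
INHBA, chr7:41703148-41703177, minus strand: aaccaatcccaaACAAAGccccagccctcc
ACVR1B, second start, chr12:51953353-51953382, plus strand: gtgcagcggggtCTTTGTtcacgggctaat
ACVR2B, chr3:38453848-38453877, plus strand: gcccgcccgcctCTTTGTatccaacatccg

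ACAAAG, on either strand, was present in the windows of INHBA, ACVR1B and ACVR2B and in 16.1% of all 35116 windows. For ACVR1B it lay in the window of the second start, and the window of the first start, at 82.3% GC, held neither ACAAAG nor CAGAC. A second SOX core, ACAATG (reverse complement CATTGT), was in no window of the 8 genes and in 10.8% of all windows. The POU octamer ATGCAAAT was in none of the 8 and in 1.77% of all windows, and the FOXH1 motif AATCCACA in none and in 0.817%. The SMAD element CAGAC was in the windows of ACVR1B, ACVR2A and INHBA and in 45.3% of all windows. TATAAA, the letters of a TATA box, was in the windows of FSTL3 and INHBA and in 11.5% of all windows. It began 29 bases before the FSTL3 start, as the reverse complement TTTATA, and 11 bases before the INHBA start. None of these 6 sets of letters lay in the FST or FSTL1 window. The matched letters of these motifs do not overlap one another in these windows. GC content was 63.7% in the FST window and 73.7% in the FSTL1 window, with 32 and 30 CpG pairs, against 43.3% and 1 CpG in the INHBA window and medians of 58.7% and 14 over all windows. Such matches describe letters and do not show binding. The stretches shown were picked by the group differences, so they show no link between letters and response.

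FST (ENSG00000134363.11, chr5:53480409-53487134 in GENCODE 29, build GRCh38) lies on the plus strand, and no other annotated gene overlaps it. Its counts were 32115, 24226 and 28739 in control and 8742, 9931 and 9301 in SOX2 siRNA libraries. On the CPM scale these were 973, 967 and 994 in control and 290, 307 and 311 after SOX2 siRNA. The lowest control library stood at 967 CPM and the highest SOX2 siRNA library at 311 CPM, so the groups lay far apart with little spread inside either. The SOX2 siRNA mean was 30.9% of the control mean, a 3.23-fold drop, and the log2 fold change was -1.69 (SE 0.0363).

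In control libraries FST was among the most abundant transcripts, at rank 68 of 17592 tested genes by mean CPM and at rank 58 of 16904 genes by CPM per kilobase of exon. After SOX2 siRNA its ranks were 504 and 239. Only 3 tested genes lost more mean CPM, and of the 6457 genes whose average log2 CPM reached 5 only 3 had a lower log2 fold change. Of all tested genes 96 had a lower log2 fold change than FST, most of them with an average log2 CPM under 5. The coefficient of variation of FST CPM was 1.46% in control and 3.81% in SOX2 siRNA libraries, against 0.594% and 1.04% from counting alone.

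FSTL1 (ENSG00000163430.11, chr3:120392293-120451253, minus strand) encodes a secreted glycoprotein with a follistatin-like domain that, despite the name, is not known chiefly as an activin trap. It was at 388, 401 and 413 CPM in control and at 552, 549 and 537 CPM in SOX2 siRNA libraries. The lowest SOX2 siRNA library exceeded the highest control library by more than the range of either group, which is the opposite direction to FST. The log2 fold change was 0.45 (SE 0.0343), with a SOX2 siRNA mean 1.36 times that of control. Exons of FSTL1 share 316 bases with AC063952.1 on the opposite strand, which had at most 1 count per library, and 62 bases with the microRNA gene MIR198, which had none.

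FSTL3 (ENSG00000070404.9, chr19:676365-683399, plus strand) encodes a second secreted inhibitor that binds activins and myostatin. It was at 2.58, 3.39 and 2.59 CPM in control and at 3.21, 2.47 and 2.31 CPM in SOX2 siRNA libraries. The groups overlapped, and the log2 fold change of -0.09 (SE 0.174) was smaller than its error. Its sign turned to 0.04 without control replicate 2. Per kilobase of exon, the mean level of FSTL3 was 0.931 in control and 0.869 after SOX2 siRNA, against 329 and 102 for FST (CPM per kilobase).

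Counted per kilobase of exon, FST made up 87.5% ± 0.262 of the summed FST, FSTL1 and FSTL3 level in control libraries and 61.6% ± 1.25 after SOX2 siRNA (SD, n = 3). FSTL1 made up 12.2% ± 0.242 and 37.8% ± 1.14, and FSTL3 0.248% ± 0.0427 and 0.527% ± 0.106. The sum of the 3 was 376 ± 5.84 CPM per kilobase in control and 165 ± 3.09 after SOX2 siRNA, and no SOX2 siRNA library reached the lowest control library. These shares depend on the gene length used. With the median length of annotated transcripts, an alternative chosen after the data were seen, FST made up 68.2% ± 0.503 in control and 32.8% ± 1.122 after SOX2 siRNA (SD, n = 3), so FSTL1, at 31.6% ± 0.490 and 66.9% ± 1.07, held the larger share after SOX2 siRNA. The sum was then 2014 ± 36.7 and 1295 ± 9.80 CPM per kilobase.

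The ligand subunits were at low levels. INHBA (ENSG00000122641.10, chr7:41667168-41705834, minus strand) encodes the beta A subunit, whose homodimer is activin A. Its counts were 60, 43 and 58 in control and 96, 84 and 185 in SOX2 siRNA libraries, or 1.82, 1.72 and 2.01 CPM against 3.18, 2.60 and 6.19 CPM. Each SOX2 siRNA library was above each control library, and SOX2 siRNA replicate 3 stood well above the other 2. The log2 fold change was 1.10 (SE 0.351) and the gene was not called. The coefficient of variation was 7.97% in control and 48.4% in SOX2 siRNA libraries, against 13.7% and 9.07% from counting alone, so the spread after SOX2 siRNA exceeded counting error. Without SOX2 siRNA replicate 3 the log2 fold change was 0.64 and the gene was called; it was also called, at 1.34, without SOX2 siRNA replicate 2. DESeq2's Wald test, limma-voom, edgeR without robust shrinkage, edgeR with no filter beyond 1 count and edgeR with the replicate number as a block called it as well, with log2 fold changes from 0.99 to 1.11. The call of INHBA thus differed with the test and with the libraries included, while its direction did not. The antisense gene INHBA-AS1 overlaps the span of INHBA without sharing exon bases and had 3 to 11 counts per library.

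INHBB (ENSG00000163083.5, chr2:120346143-120351808, plus strand), which encodes the beta B subunit of activin B, had 1 count in control replicate 3 and 0 counts in the other 5 libraries. This is below the floor of 3 counts per library in both groups, so no ratio is given. INHBE (ENSG00000139269.2, chr12:57452323-57459280, plus strand), which encodes the beta E subunit, best known in liver, was counted 15, 17 and 5 times in control and 18, 19 and 14 times in SOX2 siRNA libraries. Its groups overlapped, with a log2 fold change of 0.36 (SE 0.393), and the value was -0.02 without control replicate 3, the lowest library. Counting error alone amounts to 28.5% and 24.3% of one library's INHBE value in the 2 groups, and the difference seen was within its error at this depth. Among the subunits measured, INHBA was the only one above 1 CPM in any library.

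The receptors showed small differences. ACVR1B (ENSG00000135503.12, chr12:51951667-51997078, plus strand), the type I receptor that activin and NODAL signal through, was at 49.0, 47.3 and 49.1 CPM in control and at 59.5, 54.7 and 52.2 CPM in SOX2 siRNA libraries. All SOX2 siRNA libraries were above all control libraries, and replicate 1 was the highest. The log2 fold change was 0.19 (SE 0.0506), a mean 1.14 times that of control. It ranged from 0.14 without SOX2 siRNA replicate 1 to 0.23 without SOX2 siRNA replicate 3 and stayed called in each of the 15 alternative fits.

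ACVR2B (ENSG00000114739.13, chr3:38453851-38493142, plus strand) encodes a type II receptor shared by activins, NODAL, myostatin, GDF11 and some BMPs. It was at 210.6, 222 and 215 CPM in control and at 210.3, 210.1 and 196 CPM in SOX2 siRNA libraries. Their ranges were apart, by a margin of less than 1 CPM between control replicate 1 and SOX2 siRNA replicate 1, and the log2 fold change was -0.07 (SE 0.0385) without a call. ACVR2A (ENSG00000121989.14, chr2:147844517-147930826, plus strand), the other activin type II receptor, was at 20.3, 20.6 and 22.0 CPM in control and at 21.9, 21.9 and 21.0 CPM in SOX2 siRNA libraries. These groups overlapped, with a log2 fold change of 0.04 (SE 0.0593) and no call. ACVR2A shares 430 exon bases, 6.35% of its exon length, with ORC4 on the opposite strand. ORC4 had 2000 to 2579 counts per library and ACVR2A 516 to 707, and since the use of strand in counting is not given in the sources used here, the ACVR2A values are uncertain to that extent. A missed call does not show that either type II receptor was unchanged.

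Levels of different genes were compared per kilobase of annotated exon. In control libraries the order was FST (329 ± 4.80 CPM per kilobase, SD, n = 3), FSTL1 (45.9 ± 1.42), ACVR2B (13.7 ± 0.353), ACVR1B (8.52 ± 0.173), ACVR2A (3.10 ± 0.135), FSTL3 (0.931 ± 0.152), INHBA (0.222 ± 0.0177), INHBE (0.144 ± 0.0840) and INHBB (0.00360 ± 0.00623). The ranges of INHBA and INHBE overlapped and those of all other neighbours in the order did not. After SOX2 siRNA the order was the same, with FST at 102 ± 3.89, FSTL1 at 62.5 ± 0.892, ACVR2B at 13.04 ± 0.537, ACVR1B at 9.75 ± 0.646, ACVR2A at 3.19 ± 0.0762, FSTL3 at 0.869 ± 0.157, INHBA at 0.481 ± 0.232 and INHBE at 0.183 ± 0.0237 CPM per kilobase, and INHBB at 0. No neighbours overlapped in that group. The order depends on the gene length used. With the median length of annotated transcripts in place of all exons, FSTL1 stood above FST after SOX2 siRNA, at 866 against 425 CPM per kilobase. All exons span 2969 bases for FST and 8727 for FSTL1, and the median transcript lengths are 712 and 630 bases. Which of these lengths is nearer to the transcripts present was not tested.

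**Figure D2:**
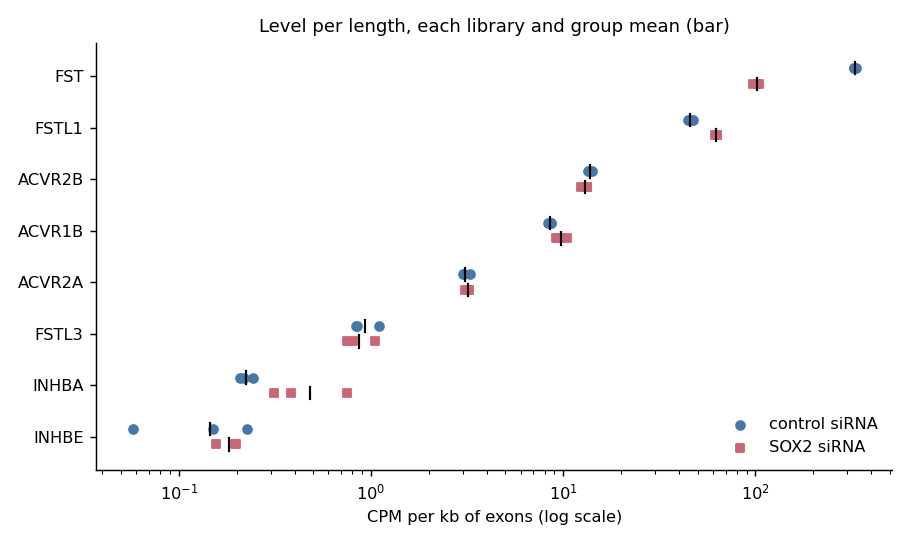
Level per length, in CPM per kilobase of exon on a log axis, of 8 of the 9 genes; INHBB, at 0 in 5 libraries, cannot be drawn. Circles are control and squares SOX2 siRNA libraries, and the bar is the group mean. FST lies near 329 in control and near 102 after SOX2 siRNA, while the ligand subunits INHBA and INHBE lie below 1.

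Ratios within a library set the trap against its ligands and receptors, and as they use the same counts they add no separate evidence. Per kilobase, FST was 1497, 1575 and 1326 times the sum of INHBA and INHBB in control libraries and 255, 331 and 141 times that sum in SOX2 siRNA libraries. Per kilobase, FST transcript thus exceeded the activin A and B subunit transcripts by over 100-fold in each library of both groups. In raw counts the ratio was 535, 563 and 487 in control and 91.1, 118 and 50.3 in SOX2 siRNA libraries. Against the sum of ACVR2A and ACVR2B the FST ratio was 19.6 ± 0.518 in control and 6.29 ± 0.441 after SOX2 siRNA, and against FSTL1 it was 7.18 ± 0.166 and 1.63 ± 0.0815 (SD, n = 3). With median transcript length the ratio of FST to FSTL1 was 2.16 ± 0.0498 and 0.491 ± 0.0245, and in raw counts 2.44 ± 0.0563 and 0.555 ± 0.0277 (SD, n = 3), so FST stood below FSTL1 after SOX2 siRNA on both of these scales. The lower ratio after SOX2 siRNA was seen on all 3 scales. Type II receptors together stood at 1.97 ± 0.0781 times ACVR1B in control and 1.67 ± 0.0707 times after SOX2 siRNA. ACVR2B was 4.43 ± 0.216 times ACVR2A in control and 4.09 ± 0.0716 times after SOX2 siRNA, against 1.90 ± 0.0931 and 1.76 ± 0.0308 times with median transcript length, so its size depends on the length used. These are ratios of transcripts and not of secreted or surface protein.

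**Figure D3:**
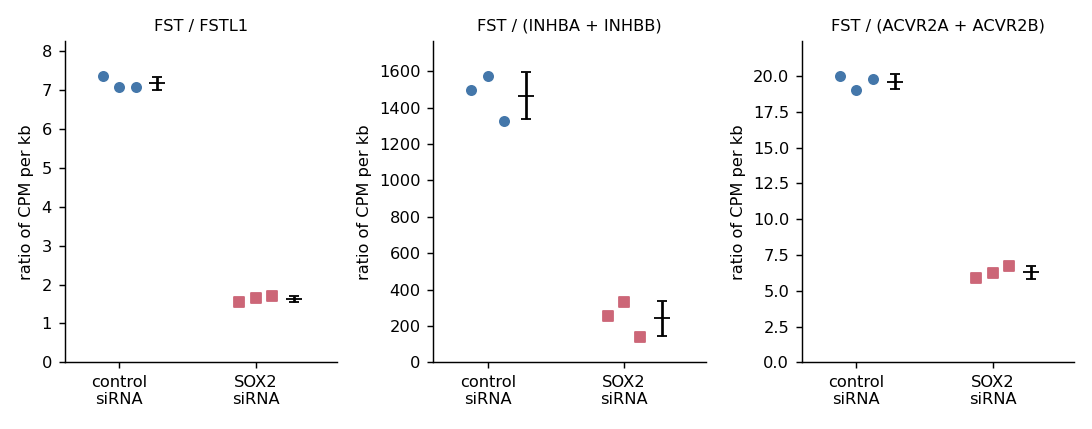
Ratio of FST to FSTL1, to the sum of INHBA and INHBB and to the sum of ACVR2A and ACVR2B in each library, all in CPM per kilobase of exon with axes from 0. Circles are control and squares SOX2 siRNA libraries, and bars give the mean and SD over 3 libraries. With exon lengths FST stands above FSTL1 in every library, which does not hold after SOX2 siRNA with median transcript length. The ratio to INHBA and INHBB runs from 1326 to 1575 in control and from 141 to 331 after SOX2 siRNA.

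The genes whose pattern over the 6 libraries was most like that of FST were VAT1L, RHOU, LRRN1, KITLG and SFRP2. They were the nearest of 6456 genes by root mean square distance of centred log2 CPM, at 0.0434, 0.0594, 0.0607, 0.118 and 0.124. With 2 groups of 3 libraries this measure mostly reads the size of the group difference. VAT1L was at 388 ± 1.72 CPM in control and 127 ± 3.44 CPM after SOX2 siRNA, and SFRP2, a secreted Wnt antagonist, at 207 ± 0.901 and 75.4 ± 4.06 CPM (SD, n = 3). KITLG, the ligand of the KIT receptor, was at 74.6 ± 3.87 and 21.8 ± 3.43 CPM. The log2 fold changes of the 5 genes ran from -1.77 to -1.45. LRRN1 shares 4.46% of its exon bases with SUMF1 on the opposite strand.

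Other genes of the pathway were read in 6 lists of 71 different genes, of which 54 were tested and 28 called, 19 higher and 9 lower. That is 51.9% called, 35.2% higher and 16.7% lower, beside 28.2%, 14.8% and 13.4% of all tested genes. The lists were set with earlier results known, so these shares are no independent evidence of a direction. Adjusted p-values in these paragraphs are from edgeR's quasi-likelihood test, corrected by the Benjamini-Hochberg method across the whole table. Genes named from the lists were mostly picked by smallest p, so their adjusted p-values are a description too. Of 10 further ligands, 4 were tested and 2 (50%) were called, both higher, with a median log2 fold change of 0.12. BMP2 rose from 1.30 ± 0.352 to 2.77 ± 0.253 CPM (mean ± SD over 3 libraries; log2 fold change 1.09, edgeR adjusted p = 5.89e-04), and BMP4 from 10.1 ± 0.673 to 12.7 ± 0.693 CPM (log2 fold change 0.32, edgeR adjusted p = 0.0054). Both encode bone morphogenetic proteins, which signal mainly through SMAD1, SMAD5 and SMAD9. GDF11, an ACVR2A and ACVR2B ligand that follistatin also binds, had a log2 fold change of -0.13 and BMP7 of -0.09, and neither was called; GDF11 shares 4.46% of its exon bases with SARNP on the opposite strand. The remaining 6 did not pass the filter. NODAL had 0 to 3 counts per library, INHA, the alpha subunit that makes inhibin, 2 to 9, INHBC 4 to 9, GDF3 3 to 12 and MSTN, encoding myostatin, 0 to 2. GDF1 had 0 counts in control and 19, 0 and 22 in SOX2 siRNA libraries; all of its exon bases are shared with CERS1 on the same strand, so its counts are uncertain.

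Among 15 other genes for follistatin-domain proteins and for modulators of activin, NODAL or related signals, 10 were tested and 7 (70.0%) called. Of these 7, 6 were higher and 1 lower, and the median log2 fold change of the tested genes was 0.28. CER1, LEFTY2 and BAMBI are listed as modulators and not as follistatin-domain proteins, so these shares do not describe that domain family alone. CER1, a secreted antagonist of NODAL and BMPs, rose from 3.60 ± 0.373 to 20.4 ± 0.453 CPM (mean ± SD over 3 libraries; log2 fold change 2.51, edgeR adjusted p = 5.39e-13). LEFTY2, which encodes an inhibitor of NODAL signalling, had 8, 4 and 7 counts in control and 27, 25 and 37 in SOX2 siRNA libraries (log2 fold change 2.13, edgeR adjusted p = 1.27e-04); its near-identical neighbour LEFTY1 had 1 to 7 counts per library and was not tested, and reads may be split between the copies. BAMBI, a receptor-like protein without a kinase that dampens TGF-beta family signals, rose from 27.8 ± 1.23 to 40.8 ± 2.64 CPM (edgeR adjusted p = 1.04e-06). AGRN, encoding the matrix protein agrin with its follistatin-like domains, had a log2 fold change of 0.26 (edgeR adjusted p = 0.00324), and shares 3.74% of its exon bases with AL645608.5 on the same strand. FSTL4, another follistatin-like gene, had 5, 11 and 16 counts in control and 27, 30 and 26 counts after SOX2 siRNA (log2 fold change 1.26, edgeR adjusted p = 0.0136), and lost its call at 0.84 without control replicate 1 and in DESeq2's Wald test. WFIKKN1 and SMOC1, named after their values were seen, were called at 0.30 and -0.27, and each lost the call in at least 4 of 15 alternative fits. TDGF1, the co-receptor through which NODAL engages ACVR1B, had at most 3 counts in any library.

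All 9 other type I and type II receptors of the family were tested and 6 (66.7%) were called, 5 higher and 1 lower, with a median log2 fold change of 0.22. ACVR1 (ALK2), a type I receptor used by BMPs and to which activin can bind without SMAD2 signalling, rose from 69.9 ± 4.23 to 102.7 ± 2.94 CPM (mean ± SD over 3 libraries; log2 fold change 0.55, edgeR adjusted p = 6.33e-08). BMPR1B rose from 13.7 ± 1.43 to 19.4 ± 0.866 CPM (edgeR adjusted p = 8.81e-05), BMPR2 from 104 ± 8.12 to 121 ± 1.56 CPM (edgeR adjusted p = 0.00249) and TGFBR2 from 21.8 ± 0.551 to 25.8 ± 1.10 CPM (edgeR adjusted p = 0.00444). AMHR2, the receptor of anti-Müllerian hormone, had 23, 9 and 10 counts in control and 33, 30 and 31 counts after SOX2 siRNA (log2 fold change 1.09, edgeR adjusted p = 0.0121), and lost its call without control replicate 2 (0.94) or 3 (0.91) and in DESeq2's Wald test (1.10). BMPR1A, named after its values were seen, was called lower at -0.15 and lost its call without control replicate 3 (-0.11) or SOX2 siRNA replicate 2 (-0.15). ACVR1C (ALK7), the other type I receptor for NODAL and activin B, had a log2 fold change of 0.22 and TGFBR1 of -0.00347, and neither was called.

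Among 22 genes of SMAD2/3 transduction and its regulators, 21 were tested and 5 (23.8%) called, 1 higher and 4 lower, with a median log2 fold change of -0.02. This share is near the 28.2% of all tested genes. The core transducers SMAD2, SMAD3 and SMAD4 had log2 fold changes of 0.02, -0.08 and -0.02 and were not called, nor was the inhibitory SMAD7 at -0.12. FOXH1, the DNA-binding partner that brings SMAD2/3 to mesendoderm genes, fell from 6.87 ± 0.583 to 3.68 ± 0.228 CPM (mean ± SD over 3 libraries; log2 fold change -0.90, edgeR adjusted p = 1.07e-05). Of its exon bases, 31.6% are shared with KIFC2 on the opposite strand. KIFC2 averaged 562.5 counts per library, above the 102 to 243 counts of FOXH1 itself, so the FOXH1 values are uncertain to that extent. SYNJ2BP, which encodes a protein that binds activin type II receptors, fell from 71.3 ± 4.12 to 57.8 ± 1.85 CPM (edgeR adjusted p = 1.30e-04) and shares 10.1% of its exon bases with a read-through gene on its strand. TGIF1, a repressor of SMAD2/3 targets, fell from 82.6 ± 3.52 to 71.3 ± 2.51 CPM (edgeR adjusted p = 0.00154). NEDD4L, a ubiquitin ligase for activated SMAD2/3, had a log2 fold change of 0.18 (edgeR adjusted p = 0.00666). TRIM33 had a log2 fold change of -0.16 (edgeR adjusted p = 0.00694) and lost its call without control replicate 3, at -0.12.

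Of 18 genes known to respond to activin or NODAL in pluripotent cells, 10 were tested and 7 (70.0%) called, 5 higher and 2 lower, with a median log2 fold change of 0.43. EOMES, a mesendoderm regulator, rose from 4.57 ± 0.330 to 34.5 ± 2.14 CPM (mean ± SD over 3 libraries; log2 fold change 2.92, edgeR adjusted p = 2.01e-14), and MIXL1, another, from 1.85 ± 0.370 to 8.88 ± 1.005 CPM (log2 fold change 2.26, edgeR adjusted p = 1.99e-09). CER1 and LEFTY2, described above, are the other increases of more than 2 on the log2 scale in this list. NANOG, which shares sequence with pseudogene copies, had 28, 17 and 27 counts in control and 7, 8 and 5 counts after SOX2 siRNA (log2 fold change -1.91, edgeR adjusted p = 3.08e-04). LHX1 had a log2 fold change of 0.60 (edgeR adjusted p = 0.0148) and lost its call without control replicate 2 (0.47) or SOX2 siRNA replicate 3 (0.45). The common SMAD2/3 feedback target SKIL, at 0.07, was not called, PMEPA1 had 2 to 16 counts per library and was not tested, TBXT had no count in any library and GSC had 2 counts, in SOX2 siRNA replicate 3.

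Proprotein convertases, which cut TGF-beta family precursors to release the mature ligand, completed the pathway. All 4 were tested and 3 (75.0%) were called, 2 higher and 1 lower, with a median log2 fold change of 0.19. FURIN rose from 90.8 ± 4.47 to 106 ± 2.49 CPM (mean ± SD over 3 libraries; log2 fold change 0.23, edgeR adjusted p = 5.86e-04) and PCSK7 from 59.1 ± 0.757 to 67.96 ± 2.54 CPM (edgeR adjusted p = 0.00175), while PCSK6 fell from 35.6 ± 1.10 to 30.4 ± 0.974 CPM (edgeR adjusted p = 0.00287). PCSK7 and PCSK6 share 17.7% and 10.8% of their exon bases with AP000892.3 and AC023024.1 on the opposite strand, which averaged 12.5 and 26.2 counts per library. PCSK7 also shares 446 exon bases (2.00%) with TAGLN on the opposite strand, which averaged 2397 counts, more than the 1498 to 2288 counts of PCSK7 itself. PCSK6 shares 9.17% of its exon bases with AC023024.2 on the same strand, at 45.7 counts on average. The counts of both convertases are uncertain to that extent. PCSK5 had a log2 fold change of 0.19 and was not called.

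**Figure D4:**
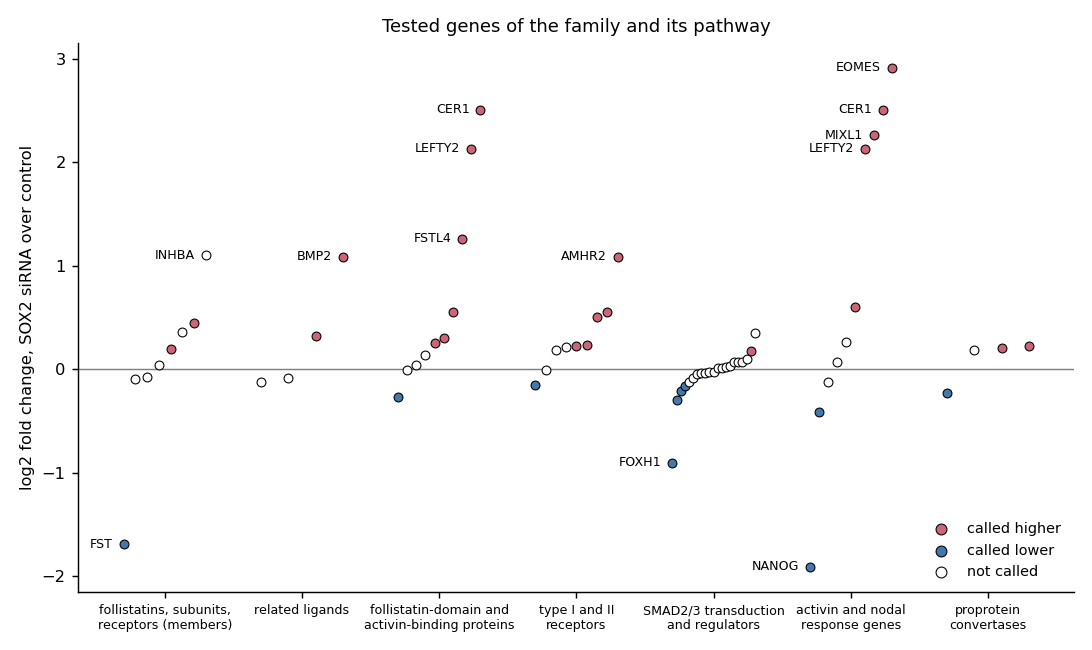
Log2 fold change, SOX2 siRNA over control, of the 8 tested members and of the tested genes of 6 pathway lists, one point per gene; genes in more than 1 list are drawn in each. Red points were called higher, blue points lower and white points not called at an edgeR adjusted p under 0.05, and names mark values beyond 0.8 in size. FST at -1.69 stands apart from the other members, and EOMES, CER1, MIXL1 and LEFTY2 lie above 2. The list labelled follistatin-domain and activin-binding proteins also holds modulators of NODAL or related signals, CER1, LEFTY2 and BAMBI among them.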

How the data were processed

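The deposited file holds raw counts per gene symbol for 6 libraries, whole numbers with unequal totals, as the authors made them. The submitters' processing notes name bcl2fastq 2.20.0, STAR 2.7.3a, Salmon 0.14.1, DESeq2 1.28.1 and GRCh38.p13, without roles; annotation and use of strand are not given in the sources used here. Columns were matched to libraries by their description label and grouped by title.

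Counts were analysed in R 4.3.3 with edgeR 4.0.16 (filterByExpr, minimum count 10; TMM scaling; glmQLFit with robust=TRUE; glmQLFTest), with Benjamini-Hochberg adjusted p-values across the whole table and calls at 0.05. Limma 3.58.1 and DESeq2 1.42.0 served as alternatives, along with other scalings and filters, robust=FALSE, a replicate block and leaving out each library. CPM uses scaled library sizes of tested genes. No molecular identifiers are named, so PCR copies may be counted, and floors cover counting error only. Lengths, coordinates and overlaps come from GENCODE 29, matched by symbol for 16904 tested genes (96.1%), which need not be the authors' annotation. The fit was also run on simulated counts in which far fewer genes changed than were called here, as many up as down. That run does not check the scaling or the false calls under a change as wide as in these data.

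Members and lists were chosen with earlier results of these data known. Named are the members, SOX2, the called genes of each list with the smallest p (at most 5), and the 5 genes most like FST among those with average log2 CPM of at least 5 (prior count 2); genes named to complete a list's count were picked after their values were seen. A gene that this rule names is not reported here.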

Additional observations from a re-analysis of the deposited data

How the results depend on the processing

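SOX2 stayed lower, at -2.32 to -2.25, over 15 alternatives, and FST stayed lower at -1.72 to -1.66. The number of genes called ranged from 3760 to 5212 against 4964, and the number of members called from 3 to 4, the added one being INHBA. Of 119 values for the 8 tested members, 110 kept direction and side of the threshold, 7 (all INHBA) became calls, and 2 changed sign: FSTL3 to 0.044 without control replicate 2 (range over the left-out libraries -0.251 to 0.044) and INHBE to -0.017 without control replicate 3 (-0.017 to 0.780). Of 625 values for 42 tested genes, 19 lost their call. Over the whole table the median log2 fold change moved to -0.0211 with upper-quartile factors, -0.00491 with total counts only and -0.0221 with no filter beyond 1 count, and to between -0.00729 and 0.00367 when a library was left out. Without length correction the FST ratio to INHBA plus INHBB was 529 in control and 86.5 after SOX2 siRNA; this follows from dropping the gene lengths. For the other changes the cause was not tested.

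With a replicate block in the model, 5177 genes were called, 4829 of them also without it, SOX2 was at -2.28, 4 members were called (INHBA added), and no other named gene's call changed. Same-numbered libraries correlated at 0.0868, -0.0377 and -0.0311 in their deviations from the group means, so the numbers were not taken to pair the libraries. Not every library correlated best with its own number. Depth limits INHBB, NODAL and TDGF1, which are at or under 3 counts per library.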
